A study of Mus musculus with 10 samples.

Results

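The enzymes described here carry out the first steps of fatty acid oxidation: the carnitine shuttle and the mitochondrial beta-oxidation of long- and medium-chain fatty acids. They are 10 genes, Cpt1a, Slc25a20, Cpt2, Acadvl, Acadl, Acadm, Hadha, Hadhb, Acaa2 and Ech1, chosen by symbol for their role, and each matched 1 of the 57825 genes in the deposited table. CD8+ T cells from the spleens of female Balb/c mice were activated with plate-bound anti-CD3, anti-CD28 and IL-2 for 12 h and were later co-cultured for 48 h with 4T1 cells, a mouse mammary carcinoma line. The CD8+4T1+NaAc group (5 samples) received 5 mM sodium acetate for 24 h ahead of the co-culture, and the CD8+4T1 group (5 samples) did not. The labels place both groups at day 3, and the study describes the RNA as that of purified CD8+ T cells. How they were separated from the 4T1 cells is not given in the sources used here. Both groups therefore share the activation and the co-culture with 4T1 cells, and the comparison is of the RNA as sequenced, with and without acetate. That RNA held tumor cell markers, at higher levels with acetate. Whether a difference lies in the T cells was not tested. No group without tumor cells was analysed here, and no source says whether samples of a group came from separate mice or cultures, so p-values measure the spread between these samples, which may be technical.

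Long-chain fatty acids enter the mitochondrion as carnitine esters. CPT1A on the outer membrane makes the ester, the carrier encoded by Slc25a20 moves it across the inner membrane and CPT2 turns it back into an acyl-CoA. An acyl-CoA dehydrogenase chosen by chain length (VLCAD, LCAD or MCAD, from Acadvl, Acadl and Acadm) then begins each round, and the trifunctional protein of HADHA and HADHB, or separate enzymes for shorter chains, carry the round to the release of acetyl-CoA by a thiolase. ACAA2 is a mitochondrial thiolase, and ECH1 is an isomerase that handles the double bonds of unsaturated fatty acids. In T cells this pathway is best known from memory CD8+ T cells, whereas activated effector cells lean on glycolysis.

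Levels are given as deposited, in FPKM, the number of sequenced fragments of a gene divided by its length and by the depth of the library. The libraries were scaled to 16306447 to 17443395 fragments in CD8+4T1 and to 16503701 to 18853726 in CD8+4T1+NaAc, and the fragments in the listed genes made up 95.5 to 97.9% and 89.8 to 92.1% of these totals. Each member value rested on 171 to 3490 fragments, lowest for Cpt2 and highest for Hadha. Replicate 1 of each group had the fewest genes above 0, with 22291 against 23786 to 24054 in the other CD8+4T1 samples and 20233 against 24681 to 25088 in the other CD8+4T1+NaAc samples, and results that rest on these libraries are also given without them. Of 11 CD8+ T cell markers all were detected, 6 were lower with acetate and 1 was higher, where 19.0% of all tested genes fell and 17.6% rose. Cd8a stood at 76.0 to 81.9 FPKM in CD8+4T1 and at 72.2 to 81.6 FPKM in CD8+4T1+NaAc and was not called, whereas Cd3d, a chain of the T cell receptor complex, fell from 68.9 to 94.6 FPKM to 46.0 to 67.7 FPKM (limma, log2 fold change -0.54, adjusted p = 0.00405). The summed FPKM of 14 epithelial and 4T1 markers was 33.6 to 44.2 in CD8+4T1 and 90.5 to 207 in CD8+4T1+NaAc, with Krt8, a keratin of simple epithelia, at 1.77 to 5.66 and 19.96 to 53.53 FPKM. Of these 14 markers, 9 were tested and 6 rose, and the median log2 fold change of the tested ones was 2.63. Spint2, which was not called, gave 20.7 FPKM of the sum on average in CD8+4T1 and 19.2 FPKM in CD8+4T1+NaAc. In bulk samples, fewer cells of a type and less RNA per cell cannot be told apart.

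With acetate, transcripts of both carnitine palmitoyltransferases and of the long-chain dehydrogenase LCAD were higher. Of these 3 genes Cpt1a rose most, 1.68-fold in mean FPKM, followed by Cpt2 at 1.33-fold and Acadl at 1.14-fold. The remaining 7 members did not pass the test, among them Acaa2 with a ratio of means of 1.302. Thus 3 of the 10 members rose and 0 fell at an adjusted p under 0.05 by limma, where 17.6% of the 15710 genes tested rose, 19.0% fell and 36.5% thus passed in either direction. At an unadjusted p under 0.05 the count of lower members was 1, Acadm, and limma's voom on recovered fragments also called 0 lower. All 10 members were tested, since each averaged 0.5 FPKM or more over the 10 samples. The groups did not overlap for these same 3 genes, all higher with acetate, against 13.1% of all tested genes without overlap and higher and 13.3% without overlap and lower. Over the 10 members the median log2 fold change was 0.04, beside -0.02 over all genes tested. The plot of single samples shows every value behind these statements.

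**Figure D1:**
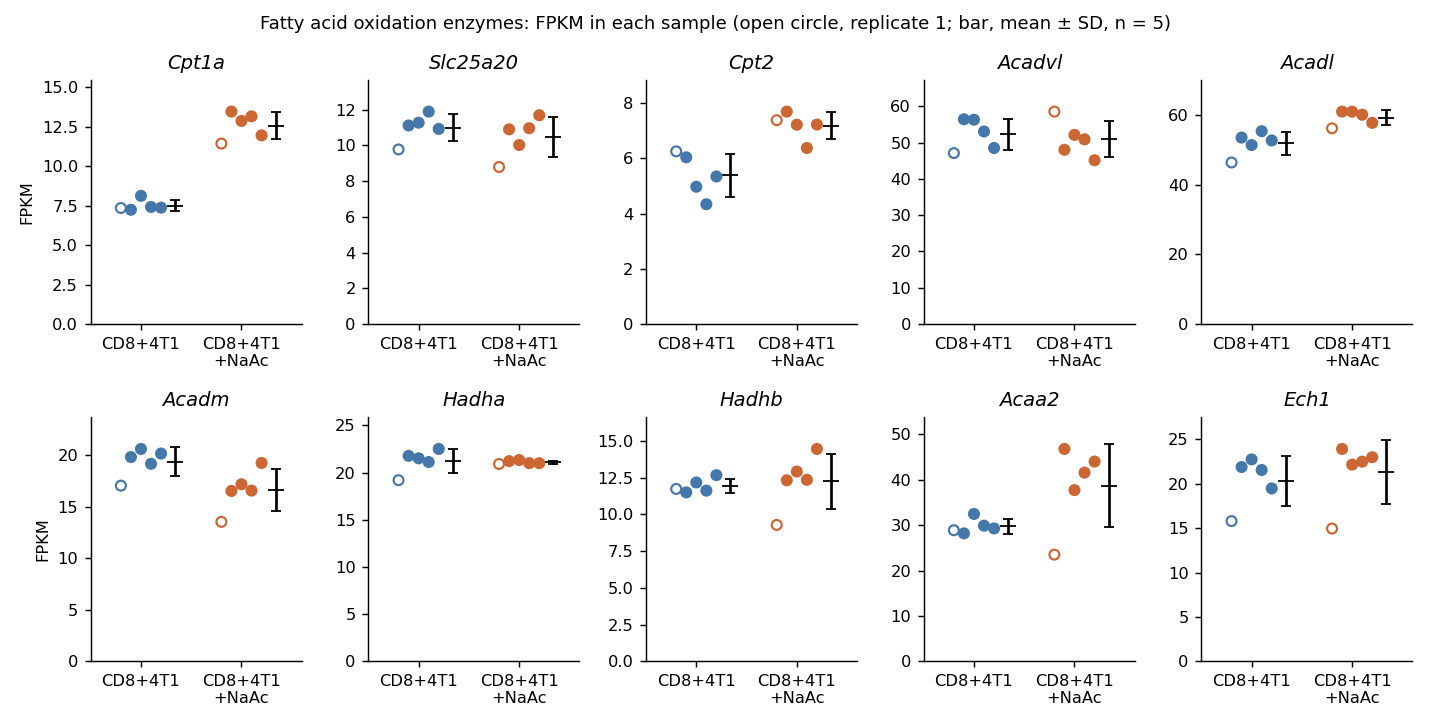
FPKM of the 10 enzyme genes in each sample, 1 panel per gene, with CD8+4T1 beside CD8+4T1+NaAc. Points are samples and bars give the mean and SD of 5 samples; Cpt1a (7.50 and 12.6 FPKM on average), Cpt2 (5.39 and 7.18) and Acadl (51.8 and 59.2) are the genes whose groups do not overlap.

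The start regions of the 3 genes that rose are shown first, because the enzymes of this pathway are often described as sharing regulators. RefSeq windows on GRCm38.p6, from 250 bases before to 50 bases after the gene start, matched 9 of the 10 members by symbol. Capitals mark GGGCGG, the GC box bound by SP1, and AGGTCA, the half-site of nuclear receptors such as the PPARs and ERRs, on either strand, so that a match on the opposite strand reads CCGCCC or TGACCT. The windows lie at chr19:3323051-3323350 on the plus strand for Cpt1a, at chr4:107923540-107923839 on the minus strand for Cpt2 and at chr1:66863260-66863559 on the minus strand for Acadl, each printed 5′ to 3′ along its gene.
Cpt1a: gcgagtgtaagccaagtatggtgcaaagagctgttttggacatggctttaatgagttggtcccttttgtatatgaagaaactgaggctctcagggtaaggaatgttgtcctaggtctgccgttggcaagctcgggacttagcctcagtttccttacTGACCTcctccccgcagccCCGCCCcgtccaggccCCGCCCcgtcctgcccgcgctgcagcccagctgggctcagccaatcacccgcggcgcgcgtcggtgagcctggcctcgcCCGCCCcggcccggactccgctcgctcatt
Cpt2: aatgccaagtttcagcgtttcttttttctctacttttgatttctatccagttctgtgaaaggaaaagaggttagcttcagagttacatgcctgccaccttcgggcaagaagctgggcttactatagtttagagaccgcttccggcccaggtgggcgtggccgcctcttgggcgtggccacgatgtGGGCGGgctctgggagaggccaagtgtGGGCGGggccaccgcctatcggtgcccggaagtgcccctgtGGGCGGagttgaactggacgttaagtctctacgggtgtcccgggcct
Acadl: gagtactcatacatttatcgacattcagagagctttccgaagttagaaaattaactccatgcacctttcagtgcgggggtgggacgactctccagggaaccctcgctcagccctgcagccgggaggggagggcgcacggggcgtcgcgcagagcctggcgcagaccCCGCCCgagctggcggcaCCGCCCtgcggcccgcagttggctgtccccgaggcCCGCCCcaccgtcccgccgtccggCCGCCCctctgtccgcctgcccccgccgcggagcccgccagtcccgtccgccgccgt

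The Cpt1a window held 3 GC boxes, at -75, -59 and 21 bases from the start, and 1 nuclear receptor half-site at -94, all on the strand opposite to the gene. Cpt2 held 3 GC boxes at -65, -38 and 4, and Acadl held 4, at -84, -66, -31 and -7. GGGCGG was found in 7 of the 9 member windows, among them Slc25a20, Hadha, Hadhb and Ech1, and in 35.7% of all 32851 RefSeq windows of the same length. The windows of Hadha and Hadhb overlap, and the 1 box of Hadha, at -188, is the box of Hadhb at -90, so it counts for both. AGGTCA was found in 3 of the 9 (Cpt1a, Acadm and Acadvl) and in 16.3% of all windows. The 2 longer nuclear receptor motifs searched, TCAAGGTCA, an ERR site, and the PPAR direct repeat, which is AGGTCA followed by any 1 base and AGGTCA again, both contain the half-site, and they were found in 0 of 9 member windows and in 0.423% and 0.0396% of all windows. The bases G and C made up 62.3% of the Cpt1a window, 57.3% of Cpt2 and 70.3% of Acadl, with a median of 52.7% over all windows. A match describes these letters and is not a site of binding. Genes that rose and genes that did not both held GC boxes.

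The carnitine shuttle changed at its acyltransferases and not detectably at its carrier. Cpt1a (ENSMUSG00000024900, chromosome 19, 3372334 to 3435733, plus strand, as the deposited table lists it) encodes the liver-type enzyme that is the main control point of long-chain oxidation. Its FPKM in CD8+4T1 was 7.35, 7.24, 8.12, 7.42 and 7.37 in replicates 1 to 5, and in CD8+4T1+NaAc 11.4, 13.5, 12.9, 13.2 and 11.95. Every acetate sample lay above every CD8+4T1 sample, and the lowest of them exceeded the highest CD8+4T1 value by more than the whole spread of that group. The means were 7.50 ± 0.353 and 12.6 ± 0.851 FPKM (SD, n = 5 each), and the log2 fold change was 0.74 with a standard error of 0.06 and a 95% interval of 0.61 to 0.87 (limma, adjusted p = 1.91e-05).

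Cpt2 (ENSMUSG00000028607, chromosome 4, 107761178 to 107780807, minus strand) encodes the matching transferase of the inner membrane. It was the lowest of the 10 members in both groups, at 6.26, 6.04, 4.98, 4.34 and 5.35 FPKM in CD8+4T1 and 7.39, 7.70, 7.22, 6.38 and 7.23 FPKM in CD8+4T1+NaAc. The groups came close without overlap, since the highest CD8+4T1 sample, replicate 1, was just under the lowest acetate sample, replicate 4. The means were 5.39 ± 0.783 and 7.18 ± 0.489 FPKM (SD, n = 5 each), with a log2 fold change of 0.42, a standard error of 0.10 and a 95% interval of 0.20 to 0.64 (limma, adjusted p = 0.00758).

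Slc25a20 (ENSMUSG00000032602, chromosome 9, 108539287 to 108561840, plus strand), which encodes the carnitine-acylcarnitine translocase between them, did not pass the test. It was at 9.77, 11.1, 11.3, 11.9 and 10.9 FPKM in CD8+4T1 and at 8.79, 10.9, 10.02, 10.96 and 11.7 FPKM in CD8+4T1+NaAc. Replicate 1 was the lowest sample of each group, below every CD8+4T1 sample in the case of acetate, and the other acetate samples lay within the CD8+4T1 range. The log2 fold change of -0.07 had a 95% interval of -0.25 to 0.11 (limma, adjusted p = 0.518).

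The ratio of Cpt1a to Cpt2 in a sample does not depend on how the sample was scaled. It was 1.18, 1.198, 1.63, 1.71 and 1.38 in CD8+4T1 and 1.55, 1.75, 1.78, 2.06 and 1.65 in CD8+4T1+NaAc. The ranges overlapped, and the mean log2 ratio was 0.32 higher with acetate, which missed the threshold in an exact two-sided permutation test (p = 0.0556, where 0.00794 is the smallest p this design allows). The Cpt1a to Slc25a20 ratio, given as a description, was 0.624 to 0.752 in CD8+4T1 and 1.02 to 1.301 in CD8+4T1+NaAc, so the acyltransferase transcript was below that of the carrier per length in each CD8+4T1 sample and above it in each acetate sample.

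Of the 3 acyl-CoA dehydrogenase genes, Acadvl and Acadl held the highest levels among the 10 members, Acadm ranked in the middle, and Acadl alone passed the test. Acadl (ENSMUSG00000026003, chromosome 1, 66869998 to 66902436, minus strand) encodes LCAD, which acts on long and branched chains. Its FPKM was 46.4, 53.5, 51.4, 55.3 and 52.7 in CD8+4T1 and 56.2, 60.9, 60.9, 60.1 and 57.7 in CD8+4T1+NaAc. The lowest acetate sample, replicate 1, stood just above the highest CD8+4T1 sample, replicate 4. The means of 51.8 ± 3.39 and 59.2 ± 2.14 FPKM (SD, n = 5 each) gave a log2 fold change of 0.19 with a standard error of 0.05 and a 95% interval of 0.07 to 0.31 (limma, adjusted p = 0.0168). It was the smallest of the 3 called changes and was not called at an adjusted p under 0.01, which Cpt1a and Cpt2 passed along with 11.7% of all tested genes in the higher direction.

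Acadvl (ENSMUSG00000018574, chromosome 11, 69901009 to 69906237, minus strand) encodes VLCAD, the membrane-bound enzyme for the longest chains. It measured 47.1, 56.4, 56.3, 53.1 and 48.5 FPKM in CD8+4T1 and 58.5, 48.005, 52.1, 50.9 and 45.1 FPKM in CD8+4T1+NaAc. The groups overlapped over nearly their whole range, and replicate 1 was the lowest CD8+4T1 sample and the highest acetate sample. The log2 fold change was -0.04, with a 95% interval of -0.21 to 0.13 (limma, adjusted p = 0.731). Acadvl shares 2119 listed bases with Dvl2, a Wnt signalling gene on the opposite strand that held 705 to 1192 fragments, and since no source used here states a strand setting for the counting, reads from their overlap cannot be told apart.

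Acadm (ENSMUSG00000062908, chromosome 3, 153627994 to 153650269, minus strand) encodes MCAD, which takes over at medium chain length. Its levels were 17.0, 19.8, 20.6, 19.2 and 20.1 FPKM in CD8+4T1 and 13.5, 16.5, 17.2, 16.6 and 19.2 FPKM in CD8+4T1+NaAc. Here 3 acetate samples lay below every CD8+4T1 sample and replicates 3 and 5 lay within their range. The means of 19.3 ± 1.39 and 16.6 ± 2.05 FPKM (SD, n = 5 each) differed by -0.23 on the log2 scale, with a 95% interval of -0.42 to -0.03, which did not pass after adjustment (limma, adjusted p = 0.0687). The call turned on single libraries: without CD8+4T1 replicate 1 or without CD8+4T1+NaAc replicate 5 Acadm was called lower, with 17.6% of genes called lower in either case. It was also called lower with sample weights (24.7% of genes), with the replicate number as a block (18.1%) and without replicate 1 of both groups (22.7%). No fragment lay in its 2 listed pseudogenes.

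The plot of fold changes sets the members beside each other under several treatments of the data.

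**Figure D2:**
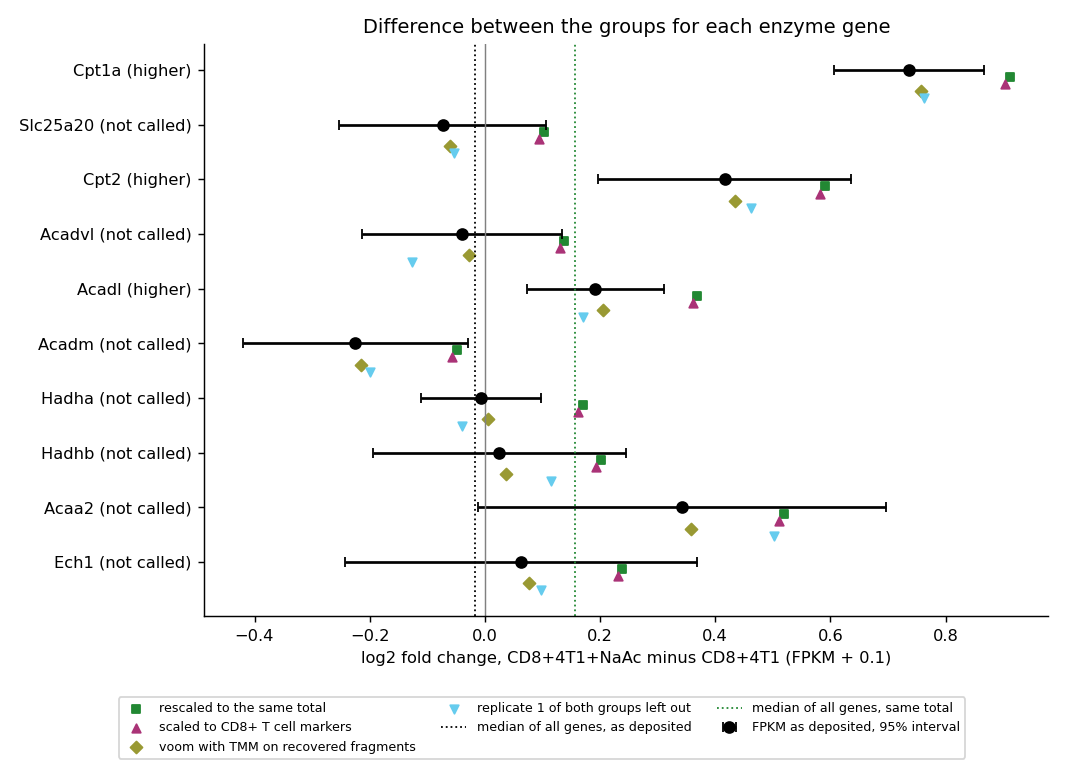
Log2 fold change of each enzyme gene, CD8+4T1+NaAc minus CD8+4T1, on the log2(FPKM + 0.1) scale (voom on fragments), with black points and bars for FPKM as deposited and its 95% interval, and colored marks for other scalings, for voom and for replicate 1 of both groups left out. Cpt1a (0.74), Cpt2 (0.42) and Acadl (0.19) stay above 0 under each of them, and dotted lines mark the median of all genes at -0.02 as deposited and 0.16 after rescaling to the same total.

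On the deposited scale neither subunit gene of the trifunctional protein passed the test. Hadha (ENSMUSG00000025745, chromosome 5, 30323302 to 30360160, minus strand) encodes the alpha subunit, with the hydratase and dehydrogenase activities for long chains. It was at 19.2, 21.8, 21.5, 21.1 and 22.5 FPKM in CD8+4T1 and at 20.9, 21.2, 21.3, 21.0 and 21.0 FPKM in CD8+4T1+NaAc. The acetate samples all fell inside the CD8+4T1 range, the tightest spread of any member, with means of 21.2 ± 1.24 and 21.1 ± 0.174 FPKM (SD, n = 5 each). The log2 fold change was -0.01, with a 95% interval of -0.11 to 0.10 (limma, adjusted p = 0.923). It turned positive and was called higher when rescaled to the same total (0.17, adjusted p = 0.00961) and when scaled to CD8+ T cell markers (0.16, adjusted p = 0.0471), scales that raise all genes.

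Hadhb (ENSMUSG00000059447, chromosome 5, 30360246 to 30389591, plus strand) encodes the beta subunit, the long-chain thiolase of the complex. It measured 11.7, 11.5, 12.2, 11.6 and 12.7 FPKM in CD8+4T1 and 9.28, 12.3, 12.9, 12.4 and 14.5 FPKM in CD8+4T1+NaAc. The acetate samples reached beyond the CD8+4T1 range at both ends, replicate 1 below it and replicates 3 and 5 above it. The log2 fold change was 0.02, with a 95% interval of -0.19 to 0.24 (limma, adjusted p = 0.869). Processed pseudogenes with the same protein name, Hadhb-ps and Gm9108, held 19.8 to 26.3% of the fragments of the family in CD8+4T1 and 22.9 to 28.4% in CD8+4T1+NaAc, so the Hadhb level is uncertain to that extent.

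The subunit genes stand head to head, with 85 bases between their listed starts, and their RefSeq windows share 228 bases. The Hadha to Hadhb ratio of FPKM was 1.64 to 1.89 in CD8+4T1 (1.78 ± 0.0938, SD, n = 5) and 1.45 to 2.25 in CD8+4T1+NaAc (1.75 ± 0.297, SD, n = 5). The log2 ratio differed by -0.03 (exact two-sided permutation test, p = 0.778). The wider range with acetate came from replicates 1 and 5, at 2.25 and 1.45. Without replicate 1 of both groups the log2 ratio was 0.16 lower with acetate (difference -0.16, exact permutation p = 0.0286). That is the smallest p this smaller design allows, and the result rests on those libraries. With pseudogene fragments added to Hadhb, an alternative chosen after seeing the data, the mean ratio was 1.36 in CD8+4T1 and 1.29 in CD8+4T1+NaAc.

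Acaa2 (ENSMUSG00000036880, chromosome 18, 74912268 to 74939279, plus strand), the mitochondrial thiolase, varied most among the acetate samples. It was at 28.9, 28.2, 32.4, 29.9 and 29.3 FPKM in CD8+4T1 and at 23.5, 46.7, 37.7, 41.5 and 44.0 FPKM in CD8+4T1+NaAc. Of the acetate samples 4 lay above every CD8+4T1 sample and replicate 1 lay below all of them. The means were 29.7 ± 1.64 and 38.7 ± 9.12 FPKM (SD, n = 5 each), and the log2 fold change of 0.34, with a 95% interval of -0.01 to 0.70, did not pass (limma, adjusted p = 0.120). Without CD8+4T1+NaAc replicate 1 it was 0.51 (limma, adjusted p = 0.000188, with 21.6% of genes called higher), and without replicate 1 of both groups it was 0.50 (adjusted p = 0.000582, with 21.9% called higher), so on the deposited scale the call turned on this library. With all 10 samples kept it was called higher with sample weights (23.7% of genes), when rescaled to the same total (0.52, adjusted p = 0.0191, 31.2% of genes) and when scaled to CD8+ T cell markers (0.51, adjusted p = 0.0141, 28.3% of genes).

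Ech1 (ENSMUSG00000053898, chromosome 7, 28524642 to 28531672, plus strand) showed the same low sample and was not called with or without it. Its FPKM was 15.8, 21.9, 22.7, 21.5 and 19.5 in CD8+4T1 and 15.0, 23.9, 22.2, 22.5 and 23.0 in CD8+4T1+NaAc. Replicate 1 was the lowest of each group and the remaining samples overlapped. The means were 20.3 ± 2.78 and 21.3 ± 3.61 FPKM (SD, n = 5 each), with a log2 fold change of 0.06 and a 95% interval of -0.24 to 0.37 (limma, adjusted p = 0.757). Without CD8+4T1+NaAc replicate 1 the log2 fold change was 0.18 (limma, adjusted p = 0.149). CD8+4T1+NaAc replicate 1 was thus the lowest acetate sample for Cpt1a, Slc25a20, Acadl, Acadm, Hadha, Hadhb, Acaa2 and Ech1, and the highest for Acadvl.

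Compared per length, Acadvl and Acadl stood at the top of the members and Cpt2 at the bottom in both groups. In CD8+4T1, Acadvl and Acadl (52.3 and 51.8 FPKM on average) overlapped each other and lay above Acaa2 in every sample. Hadha, Ech1 and Acadm followed with overlapping ranges, then Hadhb and Slc25a20, also overlapping, and then Cpt1a and Cpt2, each apart from its neighbours. In CD8+4T1+NaAc, Cpt1a moved from rank 9 to rank 7, where its range overlapped that of Hadhb, and Acadl exceeded Acadvl in 4 of 5 samples. Cpt2 was last in each group and its range did not overlap the next gene. The summed FPKM of the 10 members was 209.5 to 241.5 (median 235.3) in CD8+4T1 and 224.5 to 261.7 (median 255.4) in CD8+4T1+NaAc, with Acadl and Acadvl together giving 44.2 to 46.3% and 40.3 to 51.1% of it.

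**Figure D3:**
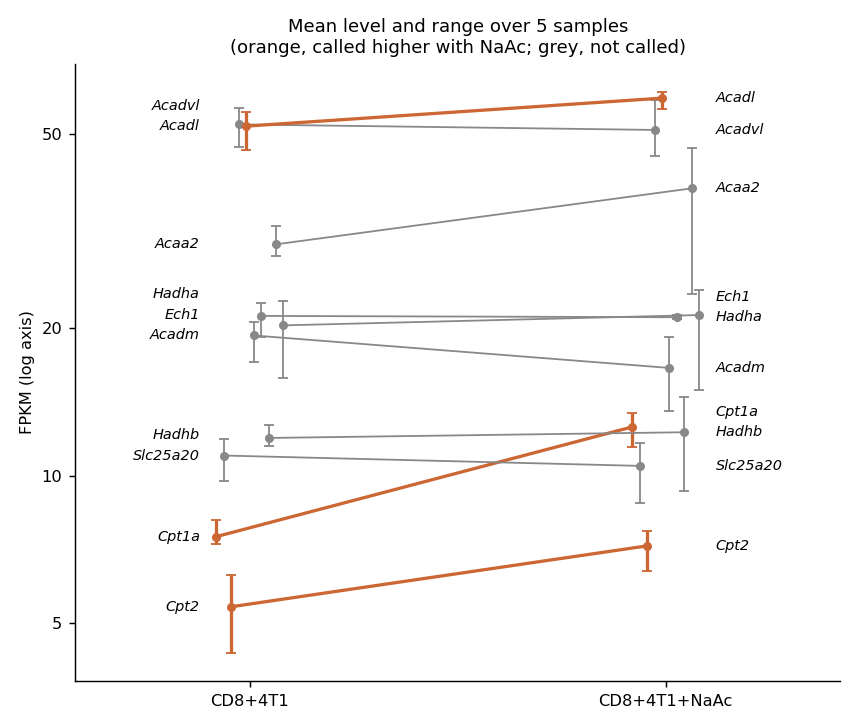
Mean FPKM of each enzyme gene on a log axis in CD8+4T1 and CD8+4T1+NaAc, with bars for the range over 5 samples, side by side to avoid overlap; orange lines are the genes called higher and grey lines those not called. Cpt1a crosses from 7.50 to 12.6 FPKM and joins Hadhb (12.3 FPKM), whereas Hadha stays at 21.2 and 21.1 FPKM.

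How the levels are scaled bears on how many members counted as higher. The deposited FPKM summed to less in the acetate samples, and rescaling each sample to the same total moved the median of all genes from -0.02 to 0.16 on the log2 scale, a shift that applies to each gene alike. On that scale 5 members rose, Hadha (0.17, limma adjusted p = 0.00961) and Acaa2 being added, while 31.2% of all genes were called higher and 8.80% lower. Scaling to the 11 CD8+ T cell markers, of which 6 were lower as deposited, moved the median to 0.15 and also gave 5 members, with 28.3% of genes called higher and 8.04% lower. Relative to these medians Hadha was not apart from other genes (0.17 beside 0.16, and 0.16 beside 0.15), whereas Cpt1a was at 0.91 and 0.90. With voom on the recovered fragments the 3 called members were again Cpt1a, Cpt2 and Acadl, with 19.5% of genes higher and 18.7% lower, and they were the same 3 with the replicate block, with 16.2% of genes higher.

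The tumor cell markers differed between the groups, and within the acetate group the members did not follow them alike. In CD8+4T1+NaAc the summed marker FPKM was 98.6, 207, 131, 157 and 90.5 in replicates 1 to 5. The 3 samples with the highest sums also had the 3 highest values of Cpt1a and of Acadl. The 2 samples with the lowest sums, replicates 5 and 1, had Cpt1a at 11.95 and 11.4 FPKM and Acadl at 57.7 and 56.2 FPKM. Their Cpt2 values were 7.23 and 7.39 FPKM. Cpt2 was lowest (6.38 FPKM) in replicate 4, which had the second-highest sum, and Slc25a20, Acadm and Hadhb were highest in replicate 5, which had the lowest. The sums of all acetate samples were above every CD8+4T1 sum, the highest of which was 44.2. Of the 14 markers, 3, among them Krt19 and Cldn4, had a mean under 0.1 FPKM over the 10 samples. The part of tumor cell RNA in these differences was not tested. Among other lists, 5 B cell markers summed to 3.92 to 4.91 and 4.55 to 6.24 FPKM. That sum was mostly Cd79b (3.58 and 4.64 FPKM on average, not called), with Ms4a1 and Pax5 near 0. The 7 myeloid markers summed to 23.8 to 31.1 and 23.6 to 27.6, and 4 CD4+ T cell and NK cell markers to 0.469 to 1.18 and 1.57 to 2.22. Cd4, the 1 tested gene of the last list, was at 0.335 to 0.796 and 1.39 to 1.87 FPKM, higher with acetate (limma, log2 fold change 1.44, adjusted p = 0.000317). The myeloid sum was mostly Cd68 (25.8 and 22.8 FPKM on average, not called), and Lyz2, the 1 called gene of that list, was at 0.322 to 1.0005 and 0.641 to 1.66 FPKM, higher with acetate (limma, log2 fold change 0.96, adjusted p = 0.0328). Their part was not tested either. The 11 CD8+ T cell markers summed to 753 to 852 and 666 to 799 FPKM, Zap70 being the 1 that rose.

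**Figure D4:**
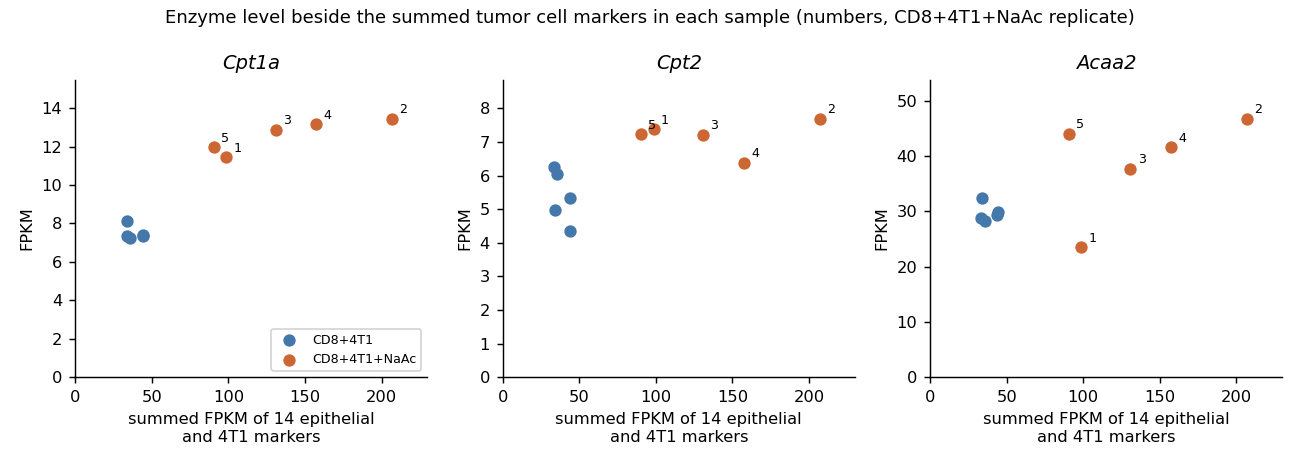
FPKM of Cpt1a, Cpt2 and Acaa2 against the summed FPKM of 14 epithelial and 4T1 markers, 1 point per sample, with numbers for the CD8+4T1+NaAc replicates. CD8+4T1 samples lie between 33.6 and 44.2 on the marker axis and acetate samples between 90.5 and 207, and acetate replicate 1 is the low Acaa2 point at 23.5 FPKM.

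The genes around these enzymes held calls in both directions. Of 81 genes in 8 related lists, 79 were in the table under the listed symbol and 66 were tested. Of these, 14 rose, 5 fell and 47 did not pass, where 17.6% of all tested genes rose and 19.0% fell. These counts, and those of each list below, are read beside these shares as a description and not as a result about the lists. The median log2 fold change of the 66 tested genes was 0.04. They were measured in the same samples, whose tumor cell markers summed to 33.6 to 44.2 and 90.5 to 207 FPKM, and the part of those cells in these changes was not tested. In fatty acid uptake and activation 3 of 11 tested genes rose and 2 fell. Slc27a1, a fatty acid transport protein, went from 2.94 ± 0.418 to 8.35 ± 1.77 FPKM (1.46 on the log2 scale, SE 0.15, adjusted p = 5.40e-05) without overlap, the largest change of any called gene in these lists. The long-chain acyl-CoA synthetase genes divided, Acsl3 (0.26) and Acsl6 (0.37) rising and Acsl4 (-0.23) falling, and Dbi, which encodes an acyl-CoA binding protein, fell by 0.34 on the log2 scale.

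Within the carnitine system Crat, which makes acetylcarnitine from acetyl-CoA, rose from 2.40 ± 0.0762 to 3.53 ± 0.0652 FPKM (SD, n = 5 each) as the only called gene of 4 tested. The other CPT1 isoforms stayed low. Cpt1b, the muscle type, averaged 0.145 FPKM in each group and was below the filter, and Cpt1c, the brain type, was at 3.01 and 2.58 FPKM (a difference of -0.22 on the log2 scale, adjusted p = 0.134). Cpt1a was therefore the CPT1 gene with the highest level per length in both groups.

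Further along mitochondrial beta-oxidation, 2 of 16 tested genes rose and 1 fell. Acads, the short-chain dehydrogenase, rose from 14.5 ± 1.03 to 27.0 ± 5.59 FPKM (log2 fold change 0.87), and Hadh, the dehydrogenase that acts on short- and medium-chain hydroxyacyl-CoA, from 5.24 ± 0.530 to 8.24 ± 0.757 FPKM (0.65), both without overlap. Decr1, a reductase for unsaturated chains, fell by 0.27 on the log2 scale. The electron transfer genes Etfa, Etfb and Etfdh, which take up electrons from the acyl-CoA dehydrogenases, were not called (0 of 3 by limma), at log2 fold changes of -0.25, -0.22 and -0.02. Of them 1, Etfa, had an unadjusted p under 0.05, and voom on recovered fragments called it lower.

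Peroxisomal oxidation, which shortens very long chains outside the mitochondrion, had 3 of 13 tested genes higher and 1 lower. Acaa1a, its thiolase, went from 3.03 to 5.59 FPKM on average (log2 fold change 0.87) and Abcd3, a transporter of the peroxisomal membrane, fell by 0.27 on the log2 scale. For propionyl-CoA, the product of odd chains, Mmut alone of 4 tested genes was called, at 0.63. Among 7 tested lipolysis and lipid droplet genes, Lipe (0.47) and Plin2 (0.35) rose and Hilpda, an inhibitor of the lipase ATGL, fell by 0.37 on the log2 scale.

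Of 8 tested regulators, Acacb, the acetyl-CoA carboxylase whose malonyl-CoA inhibits CPT1, rose from 1.38 to 2.05 FPKM (log2 fold change 0.54) and Rxra, the partner of the PPARs, rose by 0.50. Ppara held at most 3 fragments in any sample and Ppargc1a at most 1, counts too low to compare. Ppard was at 11.9 and 11.5 FPKM and Esrra at 14.04 and 14.45 FPKM on average, neither called. The calls of the falling genes depend on the scaling. With each sample rescaled to the same total, 28 genes of these lists rose and 0 fell by limma (1, Hilpda, was lower at an unadjusted p under 0.05), where 31.2% of all genes rose and 8.80% fell. With scaling to the T cell markers 26 rose and 0 fell by limma (0 lower at an unadjusted p under 0.05), where 28.3% of all genes rose and 8.04% fell.

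**Figure D5:**
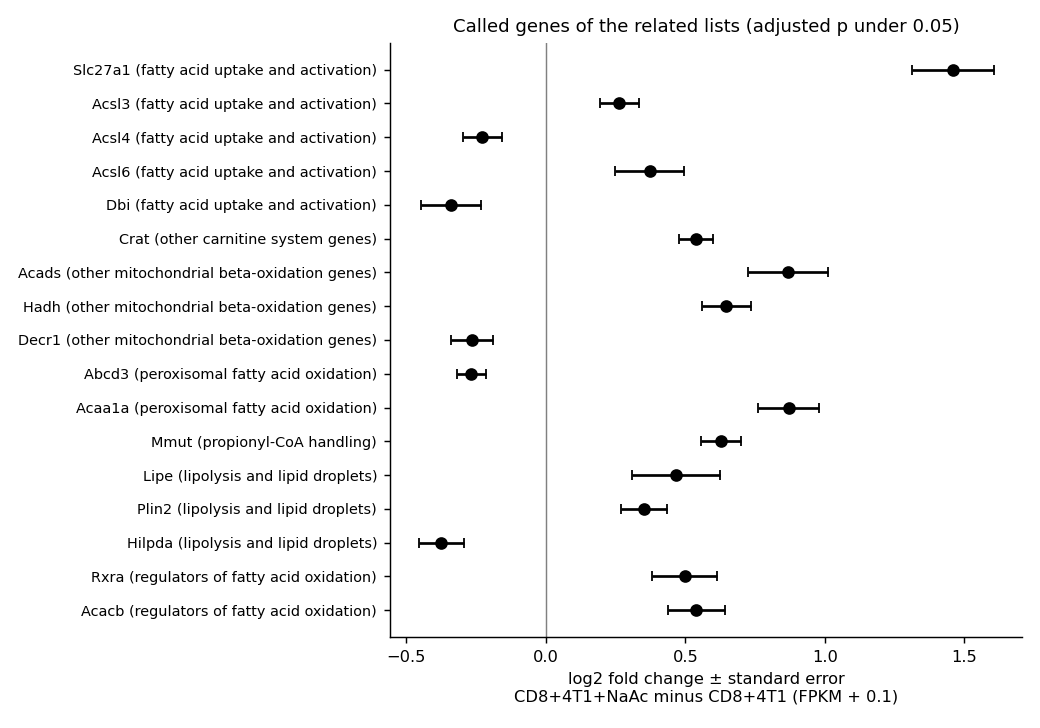
Log2 fold change with its standard error for 17 of the 19 called genes of the related lists, CD8+4T1+NaAc minus CD8+4T1 on the log2(FPKM + 0.1) scale, each with its list in brackets. Slc27a1 stands at 1.46, Acads and Acaa1a follow at 0.87, and 5 genes lie below 0.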

How the data were processed

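Bulk mRNA of 10 samples (5 per group) was sequenced as paired fragments on an Illumina NovaSeq. The authors deposited FPKM per gene with gene length, position and annotation, and the gene length is the value FPKM was divided by. The submitters' processing notes name fastp, HISAT2 2.0.5, StringTie 1.3.3b and featureCounts 1.5.0-p3, and the study's own test was DESeq2. The genome build of the table and the strand setting are not given in the sources used here. The RefSeq windows are on GRCm38.p6 and were joined by symbol, with no coordinates carried over.

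Fragments were recovered as FPKM times gene length, divided by a step fitted in each sample. The results lay within 0.1 of a whole number for 100% of values. The main test was limma 3.58.1 (R 4.3.3), with trend and robust moderation, on log2(FPKM + 0.1) over the 15710 genes that averaged 0.5 FPKM or more, adjusted by Benjamini-Hochberg over all of them and called under 0.05. The pseudocount makes fold changes of low genes too small. Since the deposited unit was FPKM, a count test was not the main test. Ratios were compared by an exact two-sided permutation test. Figures used matplotlib 3.10.9. Groups and columns came from the sample labels, and replicate numbers were taken from them. Intervals cover the spread between samples only.

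The members, related lists, markers and tests were chosen with earlier results of these data known. All members were named with each sample value, along with the called genes of each related list (at most 4 per direction), Cpt1b, Cpt1c, and up to 3 examples per marker list. Ppara, Ppargc1a, Ppard, Esrra, Etfa, Etfb, Etfdh, Cd4, Cd79b, Spint2 and the genes overlapping or copying a member were named after their values were seen. A few genes of these lists are counted but not reported singly here. Alternatives covered pseudocount, filter, scaling, test, threshold, a replicate block and samples left out.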

Additional observations from a re-analysis of the deposited data

Results flagged for a closer look

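In 4 of the 66 groups of 5 samples checked, 1 sample stood apart from the other 4. The groups covered the enzymes, the tested ratios and the named related genes. The measure was the gap to the nearest sample divided by the range of the group, both on the log2 scale, set against 0.71. Chance sets apart about 1 in 20 groups, or 3.3 here. For Cpt1a the highest CD8+4T1 sample, replicate 3 at 8.12 FPKM, had a gap of 0.789 of the range, and it still lay below every acetate sample. The other 3 were low values of CD8+4T1+NaAc replicate 1: Ech1 with 0.836, Acads with 0.796 and Acaa1a with 0.776. This library also had the fewest genes above 0 (20233).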

How the results depend on the processing

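Cpt1a, Cpt2 and Acadl kept their higher call under every alternative at an adjusted p under 0.05, including each sample left out in turn, where their log2 fold changes were 0.71 to 0.77, 0.34 to 0.47 and 0.15 to 0.22 (limma adjusted p up to 0.000127, 0.0215 and 0.0446). At an adjusted p under 0.01 Acadl lost its call and the related genes called went from 19 to 12. Over all 15710 genes the calls went from 2764 higher and 2978 lower to 1832 and 1870. With a mean of at least 5 FPKM 10 related genes were called, fewer genes being tested. There 1257 of all 7800 genes tested were called higher and 2476 lower. Rescaling to the same total gave 5 members higher and a median of 0.22, and scaling to CD8+ T cell markers 5 and 0.21, both of which raise all genes by construction. On these scales Slc25a20 (0.10 and 0.094), Acadvl (0.14 and 0.13) and Hadha (0.17 and 0.16) turned from negative to positive, as did Hadha with voom (0.0053). Sample weights called 4 members higher (23.7% of all genes) and 1 lower (24.7%), and leaving out replicate 1 of both groups did the same, the lower one being Acadm each time. Leaving out 1 sample gave 3 to 4 members higher and 0 to 1 lower. Of the 15626 to 15757 genes tested in these runs, 2347 to 3379 were called higher and 2526 to 3551 lower. The member median lay between -0.0028 and 0.15, the extremes being without CD8+4T1 replicate 1 and without CD8+4T1+NaAc replicate 1. In the same runs Ech1 ranged from -0.025 to 0.18, Hadha from -0.042 to 0.015, Acadvl from -0.090 to 0.0032 and Hadhb from -0.037 to 0.12, crossing 0 each time, and none of these was called. The Cpt1a to Cpt2 log2 ratio ranged from 0.26 to 0.39, passing the exact permutation test without CD8+4T1 replicate 3 (0.38, p = 0.0476), CD8+4T1 replicate 4 (0.39, p = 0.0317) or CD8+4T1+NaAc replicate 1 (0.36, p = 0.0317). The Hadha to Hadhb log2 ratio ranged from -0.13 to 0.032, turning positive without CD8+4T1+NaAc replicate 5, and was -0.16 without replicate 1 of both groups. With the fragments of processed pseudogenes added, an alternative chosen after seeing the data, it was -0.08. Where a construction is not named, the cause was not tested.

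The labels number the replicates alike in both groups, but same-numbered samples did not deviate together (correlations across genes of -0.03 to 0.07). These correlations cannot decide whether same-numbered samples share a mouse or culture, which the sources used here do not state. A replicate block gave 3 members higher (16.2% of all genes) and 1 lower (18.1%), Acadm at -0.23 (limma adjusted p = 0.0181). Depth limited Ppara, Ppargc1a and Cpt1b, which had at most 3, 1 and 14 fragments in a sample.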
